A study of Mus musculus with 8 samples.

Results

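The plasminogen activators and their partners were followed here as 4 genes chosen by symbol: the activators *Plat* and *Plau*, the receptor *Plaur* and the inhibitor *Serpine2*. These 4 were found once each among the 53465 genes of the count table, and all 4 passed the filter on low counts that left 14301 genes for testing. *Plat* encodes tissue-type plasminogen activator and *Plau* encodes urokinase, the secreted serine proteases that cut the zymogen plasminogen into plasmin. Plasmin degrades fibrin and other matrix proteins and activates further proteases. *Plaur* encodes the urokinase receptor, a membrane-anchored protein that holds urokinase at the cell surface. *Serpine2* encodes protease nexin-1, a secreted serpin that traps urokinase, tissue-type activator and thrombin. In the pancreas, tumor cells and stroma are both known sources of these proteins, and urokinase and its receptor are commonly studied in invasion.

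Gene expression was measured by poly(A) RNA-seq in 8 libraries of mouse pancreatic ductal adenocarcinoma (PDAC) cells of the lines B73 and B87 (2 in all), each derived from 1 primary tumor. All cells carried a Dox-inducible shRNA against *Smad4*, so the Smad4-on cells carried the silent hairpin too. Smad4 is the partner of the receptor-activated SMAD factors downstream of TGFβ. Smad4-off cells stayed on Dox, and Smad4-on cells had been without Dox for 5 days before plating. Effects of Dox itself and of Smad4 therefore cannot be told apart. From 24 h after plating, each state was given TGFβ1 at 100 pM, or SB505124 at 2.5 µM, for 24 h. SB505124 blocks the kinase of the type I receptor for TGFβ. The SB505124 libraries are therefore inhibited, not untreated. Each of the 4 groups held 1 library per line (n = 2). The replicates are thus 2 lines, and nothing in the labels gives separate cultures within a line. Restoring Smad4 under each treatment asks which genes depend on Smad4 when the pathway is on or off, and TGFβ1 against SB505124 asks for the response within each Smad4 state.

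Libraries totalled 18389235 to 23440550 counts, and 3 counts, the floor taken as detectable, equalled 0.125 to 0.162 CPM (counts scaled to a common library total). The lowest count of a member in any library was 5. *Smad4* itself was measured at 34.3 ± 0.87 CPM (SD, n = 2) and 35.1 ± 0.60 CPM in Smad4-off cells under SB505124 and TGFβ1, against 106 ± 11.6 and 116 ± 1.1 CPM in Smad4-on cells. The TGFβ feedback genes *Smad7*, *Skil* and *Pmepa1* were called higher with TGFβ1 in both Smad4 states, by 1.73 to 3.88 on the log2 scale. Of 7 epithelial markers, the keratins were abundant, the list summing to 1206 to 5555 CPM, but *Epcam* stayed between 0.153 and 2.11 CPM and *Cldn4* had 0 counts in at least 1 library. Leukocyte markers summed to at most 6.43 CPM, with *Ptprc*, *Adgre1*, *Lyz2* and *Cd3e* at 3 counts or fewer in each library and *Cd68* at 1.17 to 6.28 CPM. Endothelial markers summed to 0.702 to 26.0 CPM, with *Kdr* at up to 25.2 CPM. These are bulk libraries, in which fewer cells of a type and less RNA per cell cannot be told apart.

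On GRCm38, *Plat* (ENSMUSG00000031538) lies on chromosome 8 at 22757727 to 22782844 on the plus strand, and *Plau* (ENSMUSG00000021822) on chromosome 14 at 20836660 to 20843385, also on the plus strand. *Plaur* (ENSMUSG00000046223) is on the plus strand of chromosome 7 at 24462484 to 24475968. *Serpine2* (ENSMUSG00000026249) is on the minus strand of chromosome 1 at 79794197 to 79861180. No other annotated gene overlapped any of the 4 loci, and 0% of their 75-base stretches of exon sequence also occurred in a transcript of another gene. Levels are compared between genes below as CPM per kilobase of merged exon sequence, which was 6241 bases for *Plat*, 2367 for *Plau*, 2617 for *Plaur* and 8287 for *Serpine2*.

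Promoter sequences were taken from the RefSeq annotation of GRCm38.p6, where 2 of the 4 members matched, *Plaur* and *Serpine2*. The 250 bases before the start of *Plaur*, the most abundant of the 4 and one that was higher with TGFβ1 in both Smad4 states, are shown at chr7:24462233-24462482 (plus strand), 5′ to 3′. Capitals mark matches to TGANTCA, the consensus of AP-1, and to GGGCGG, the core of the GC box bound by SP factors.

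*Plaur*: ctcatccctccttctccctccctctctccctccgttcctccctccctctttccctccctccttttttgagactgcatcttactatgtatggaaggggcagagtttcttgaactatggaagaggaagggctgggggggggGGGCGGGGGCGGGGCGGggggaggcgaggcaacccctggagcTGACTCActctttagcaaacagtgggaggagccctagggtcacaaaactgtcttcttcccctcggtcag

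The single AP-1 match, TGACTCA, begins 69 bases before the *Plaur* start, and 3 adjoining GC boxes begin 111, 105 and 100 bases before it. Among 32817 promoter windows of this length, 6.75% held TGANTCA and 32.7% held GGGCGG on either strand. The window held no match on either strand to CAGACA, which contains the SMAD core (17.1% of windows), to the palindrome GTCTAGAC (0.168%) or to the RUNX core TGTGGT (14.0%), nor, in the sense of transcription, to TATAAA (7.60%). The *Serpine2* window, which overlaps an exon of another *Serpine2* transcript and is not printed, held 6 GC boxes and no other of these motifs. Its GC content was 78.8%, against 59.6% for *Plaur* and a median of 52.4% over all windows.

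The order of the levels differed between conditions for the activators only. Per kilobase, *Plaur* was highest in each of the 8 libraries, with group means of 56.5 CPM per kilobase in Smad4-off cells under SB505124, 65.1 in Smad4-on cells under SB505124, 80.0 in Smad4-off cells with TGFβ1 and 134.5 in Smad4-on cells with TGFβ1. *Serpine2* was lowest in each library, with group means from 0.670 to 2.07 CPM per kilobase, or 1.64 to 5.06 with the longest transcript as the length. Among the 14301 genes tested, the mean level of *Plaur* per kilobase exceeded that of 96.4% of genes, *Plau* 80.4%, *Plat* 63.5% and *Serpine2* 24.7%. Between these, *Plau* stood above *Plat* in 3 groups, and *Plat* stood above *Plau* in Smad4-on cells under SB505124, at 14.3 against 7.85 CPM per kilobase. In Smad4-off cells under SB505124 their means were 11.8 for *Plat* and 21.8 for *Plau*, and with the longest transcript as the length the B87 library of that group had *Plat* above *Plau*, at 16.5 against 14.5 CPM per kilobase, so their order there depends on the length used.

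**Figure D1:**
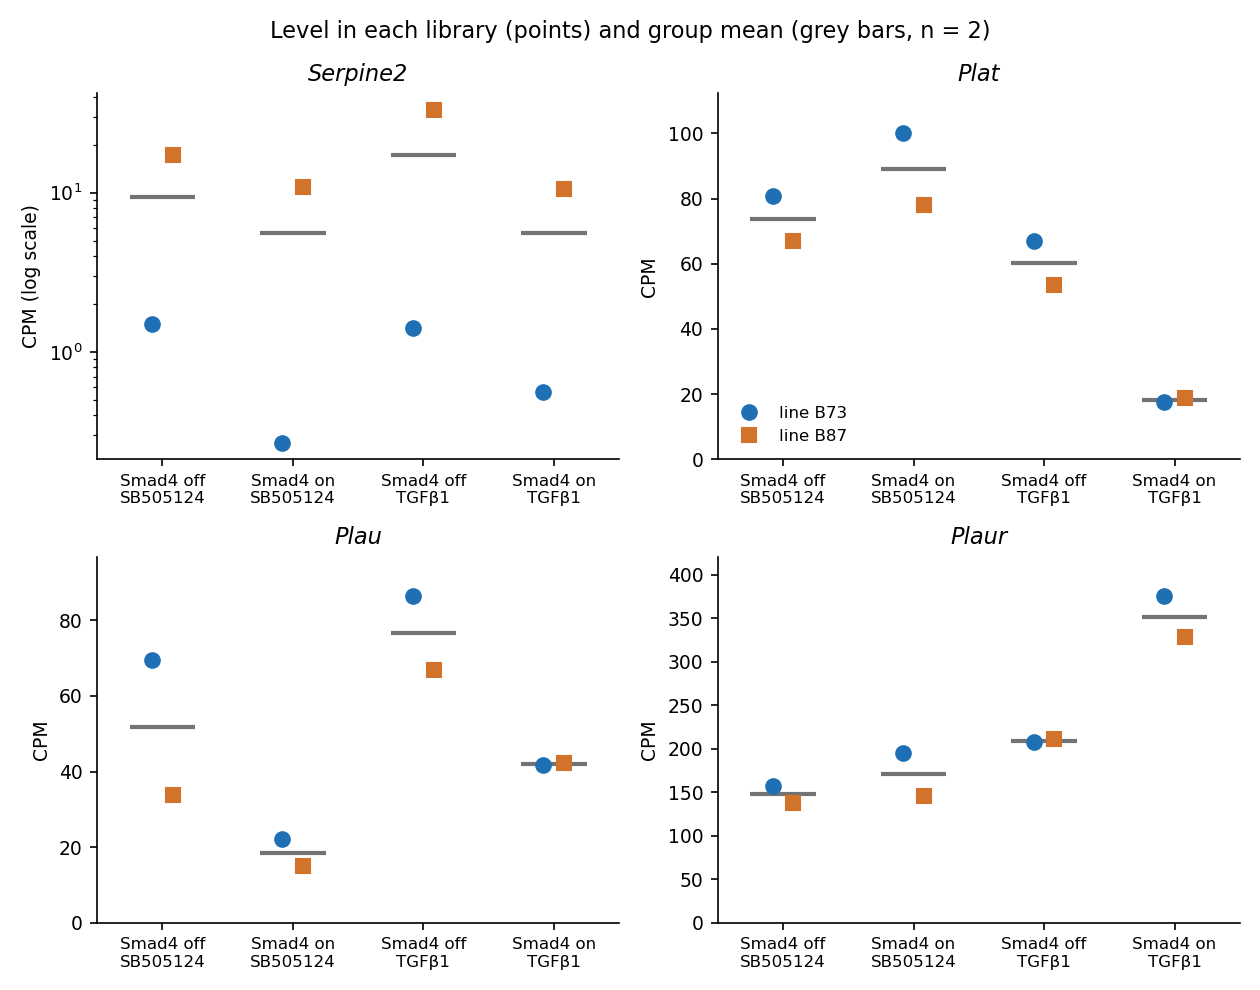
CPM of each member in each library by group, with line B73 as circles and B87 as squares and the group mean of n = 2 as a grey bar; the *Serpine2* axis is on a log scale. *Plat* is lowest and *Plaur* highest in Smad4-on cells with TGFβ1, *Plau* is lowest in Smad4-on cells under SB505124, and the 2 lines separate most in *Serpine2*.

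*Plat*, the tissue-type activator, was lowered by TGFβ1 in Smad4-on cells, and this lowering differed from the change in Smad4-off cells. In line B73, *Plat* measured 80.6 CPM in Smad4-off and 100.2 CPM in Smad4-on cells under SB505124, and 66.8 and 17.7 CPM with TGFβ1. In line B87 the same 4 libraries gave 66.9, 77.9, 53.6 and 18.6 CPM. Both Smad4-on libraries with TGFβ1 lay below the other 6, which ranged from 53.6 to 100.2 CPM. How many of all genes separated the libraries in this way was not counted. Fitted over all 8 libraries with the line in the model (edgeR quasi-likelihood test, Benjamini-Hochberg adjustment over all genes tested), TGFβ1 changed *Plat* in Smad4-on cells by −2.28 ± 0.13 (log2 fold change ± SE, adjusted p = 1e-04), leaving 20.6% of the SB505124 level. In Smad4-off cells the change was −0.29 ± 0.12 (adjusted p = 0.152). With TGFβ1, restoring Smad4 changed *Plat* by −1.72 ± 0.12 (adjusted p = 0.0014), a 3.28-fold lower level. Under SB505124 the Smad4 change was 0.27 ± 0.12 (adjusted p = 0.406).

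The interaction term tests whether the response to TGFβ1 differed between the Smad4 states, and for *Plat* it was −1.98 ± 0.17 (adjusted p = 0.0189 by edgeR). It was −2.22 within B73 and −1.74 within B87. *Plat* was 1 of 27 genes called in this term, 0.189% of those tested, of which 19 were lower; by p it was the 6th of these 19 and by size the 9th. Without the line in the model (no replicate block) the estimate was −2.0, with an adjusted p of 0.392 by edgeR, which lost the call, and 6.78e-08 by DESeq2, which kept it. Leaving out a Smad4-off library (B73 or B87, TGFβ1 or SB505124) or a Smad4-on SB505124 library of either line gave adjusted p from 0.0505 to 0.127, with the estimate between −1.89 and −2.09. The calls for *Plat* in the TGFβ1 response of Smad4-on cells and in the Smad4 effect with TGFβ1 kept an adjusted p under 0.05 in 17 of 17 alternatives with a test, the highest being 0.00316 and 0.0355. The setting with no fold rule is among these and repeats the main fit, so its adjusted p could not differ.

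*Plau*, the urokinase gene, was lower with Smad4 restored in all 4 pairs of libraries that shared a line and a treatment. Under SB505124 it measured 69.6 CPM in Smad4-off and 22.1 CPM in Smad4-on cells of B73, and 33.8 and 15.1 CPM in B87. With TGFβ1 the Smad4-off and Smad4-on levels were 86.4 and 41.8 CPM in B73 and 67.0 and 42.3 CPM in B87. The 2 Smad4-on libraries with TGFβ1 lay within 1 CPM of each other, while the 2 Smad4-off libraries under SB505124 differed 2.06-fold. Restoring Smad4 under SB505124 changed *Plau* by −1.44 ± 0.23 (edgeR adjusted p = 0.0359), a 2.71-fold lower level. With TGFβ1 the change was −0.84 ± 0.22 (adjusted p = 0.0712), which missed the threshold, and the interaction was 0.60 ± 0.31 (adjusted p = 0.572), so the Smad4 change was not shown to differ between treatments.

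The call for *Plau* under SB505124 was lost by edgeR without the line (no replicate block, adjusted p = 0.567) and kept by DESeq2 without it (−1.47, adjusted p = 0.00935). By edgeR it was also lost without the Smad4-off SB505124 library of B73 (0.137), the Smad4-on SB505124 library of B73 (0.229) or of B87 (0.147), or the Smad4-off TGFβ1 library of B73 (0.0634) or of B87 (0.062), with estimates of −1.03 to −1.49 in these fits. Conversely, without the Smad4-on TGFβ1 library of B87 the change with TGFβ1 was −1.19 (adjusted p = 0.0474) and passed both thresholds.

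TGFβ1 raised *Plau* in Smad4-on cells by 1.22 ± 0.23 (edgeR adjusted p = 0.00742), or 2.33-fold, with 41.8 against 22.1 CPM in B73 and 42.3 against 15.1 CPM in B87. This call was lost without the Smad4-on SB505124 library of B87 (adjusted p = 0.058), and without the Smad4-on TGFβ1 library of B87 the change was under 2-fold at 0.87 (adjusted p = 0.0345). With no replicate block its adjusted p was 0.0825 by edgeR and 0.00903 by DESeq2, which kept the call. In Smad4-off cells the TGFβ1 change was 0.62 ± 0.22 (adjusted p = 0.115), and without the B73 library under SB505124 it was 1.03 (adjusted p = 0.034), past both thresholds.

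*Plaur*, the receptor for urokinase, was highest in the 2 Smad4-on libraries with TGFβ1. The share of all genes with these 2 libraries highest was not counted. Under SB505124 it measured 157.6 CPM in Smad4-off and 195 CPM in Smad4-on cells of B73, and 138 and 146 CPM in B87. With TGFβ1 the Smad4-off libraries measured 208 CPM in B73 and 211 CPM in B87, and the Smad4-on libraries 375 and 329 CPM. TGFβ1 raised *Plaur* in Smad4-on cells by 1.05 ± 0.11 (edgeR adjusted p = 0.000762), just past 2-fold at 2.08-fold. Without the Smad4-on SB505124 library of B87 this was 0.90 (adjusted p = 0.00562), under 2-fold.

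In 2 further comparisons *Plaur* passed the p threshold but not the 2-fold rule. TGFβ1 raised it in Smad4-off cells by 0.51 ± 0.11 (adjusted p = 0.0283), or 1.42-fold, and restoring Smad4 with TGFβ1 raised it by 0.74 ± 0.11 (adjusted p = 0.0127), or 1.67-fold. Under SB505124 the Smad4 change was 0.20 ± 0.11 (adjusted p = 0.528). The interaction was 0.54 ± 0.16 (adjusted p = 0.285), and the values within the lines were 0.54 in B73 and 0.56 in B87. Within each line the fibroblast marker sum was also highest in the Smad4-on library with TGFβ1, where *Plaur* was highest and *Plat* lowest. It reached 8.87 CPM in B73 and 646 CPM in B87, of which *Col1a1* gave 627 CPM. Of the other markers in this list, *Dcn* and *Lum* stayed at 3 counts or fewer in each library. *Pdgfrb*, *Pdgfra* and *Col1a2* were at most 27.1, 6.40 and 3.01 CPM in any library. The part of these markers in the *Plaur* and *Plat* results was not tested.

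*Serpine2*, the protease nexin gene, was set apart by its difference between the lines. In B73 it gave 30 counts in Smad4-off and 5 in Smad4-on cells under SB505124, and 33 and 11 counts with TGFβ1, or 1.5, 0.270, 1.41 and 0.561 CPM. In B87 the same libraries gave 17.3, 10.8, 32.9 and 10.5 CPM, from 207 to 661 counts. Every B87 library lay above every B73 library, by 11.5-fold to 40.2-fold within a condition. The fitted line difference was 4.26 ± 0.25 (B87 over B73, edgeR adjusted p = 0.000109), and 8.37% of all genes tested were called between the lines. *Serpine2* was the only member among them. For the other members the fitted line difference was −0.20 to −0.48, with adjusted p from 0.0809 to 0.141, and did not pass the test. Of the variance of log2 CPM over the 8 libraries, the line accounted for 87.9% in *Serpine2*, 9.04% in *Plau*, 3.93% in *Plaur* and 1.49% in *Plat*.

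A list of 6 fibroblast markers differed between the lines in the same direction, mostly through *Col1a1*. The list summed to 3.99 to 8.87 CPM in the B73 libraries and to 43.9 to 646 CPM in those of B87. There *Col1a1* alone gave 25.9 to 627 CPM. Of the same list, *Dcn* and *Lum* were at 3 counts or fewer in each library of either line. *Pdgfrb*, *Pdgfra* and *Col1a2* reached at most 27.1, 6.40 and 3.01 CPM. The 7 epithelial markers differed the other way, summing to 3367 to 5555 CPM in B73 and 1206 to 2084 CPM in B87. According to the study, its cell lines were passaged to remove nontumor cells before use. The part of these marker differences in the line difference of *Serpine2* was not tested. With 1 line of each kind, the difference describes B73 and B87 and not a class of tumors.

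With Smad4 restored, *Serpine2* was lower in each of the 4 pairs of libraries of 1 line and treatment. With TGFβ1 the Smad4 change was −1.54 ± 0.32 (edgeR adjusted p = 0.0376), a 2.91-fold lower level, and the call passed by a small margin. Within B73 the ratio of Smad4-on to Smad4-off CPM was 0.397 (95% exact interval from the counts, 0.181 to 0.805), and within B87 it was 0.321 (0.273 to 0.375). Under SB505124 the fitted change was −1.07 ± 0.33 (adjusted p = 0.231), with ratios of 0.180 (0.0547 to 0.470) in B73 and 0.629 (0.536 to 0.737) in B87. These intervals cover counting error only. The call with TGFβ1 was lost without any 1 of the 4 TGFβ1 libraries: the adjusted p was 0.118 and 0.103 without the Smad4-off and Smad4-on library of B73, and 0.316 and 0.246 without those of B87. With no replicate block it was 0.819 by edgeR and 0.867 by DESeq2. The fibroblast sums in B87 were higher with Smad4 restored, 152 against 43.9 CPM under SB505124 and 646 against 184 CPM with TGFβ1. In B73 the sums with and without Smad4 were 3.99 and 4.29 CPM under SB505124, and 8.87 and 6.42 CPM with TGFβ1. The part of these markers in the Smad4 change of *Serpine2* was not tested.

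TGFβ1 did not move *Serpine2* past the threshold in either state. The change was 0.12 ± 0.34 (adjusted p = 0.824) in Smad4-on and 0.59 ± 0.31 (adjusted p = 0.262) in Smad4-off cells. The lines went apart in Smad4-off cells, where TGFβ1 gave a ratio of 0.944 (0.558 to 1.6) in B73 and 1.91 (1.68 to 2.17) in B87. Leaving out the Smad4-off SB505124 library of B87 turned the fitted value to −0.12 (adjusted p = 0.886).

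**Figure D2:**
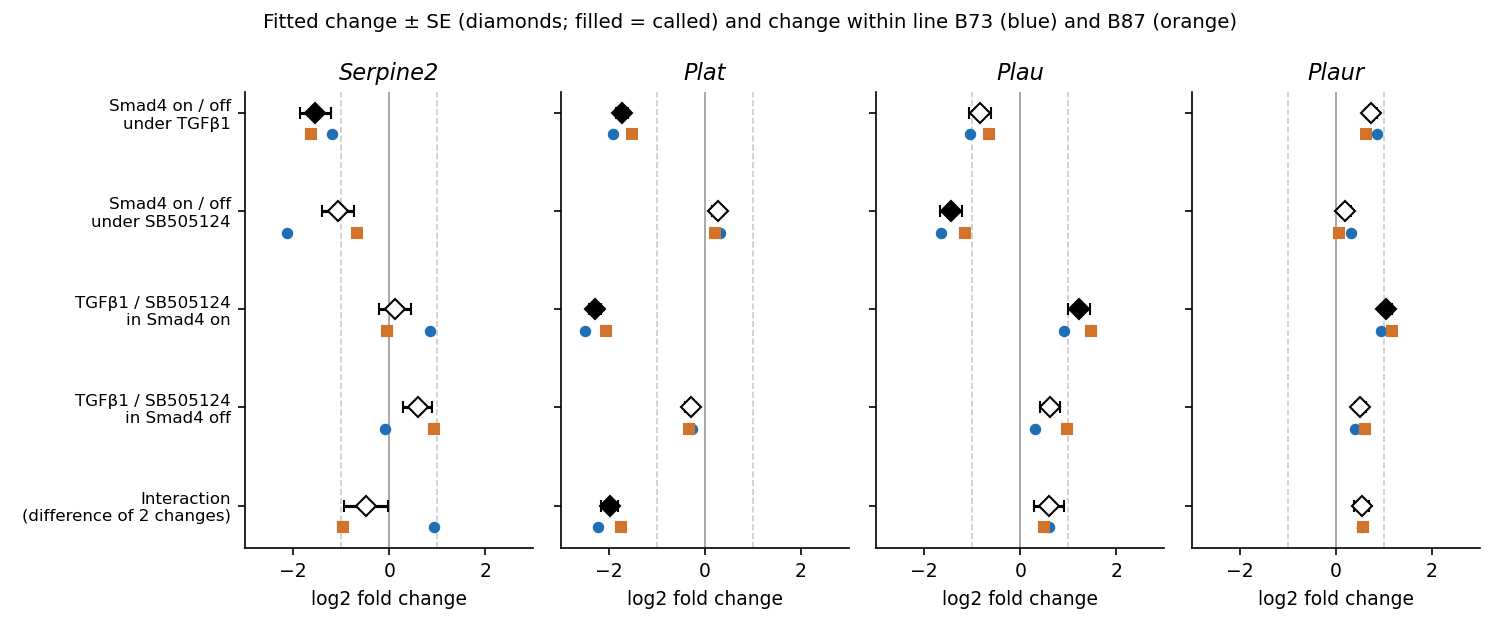
Log2 fold change of each member in 5 comparisons, as fitted over the 8 libraries (diamonds, ± SE, filled where called) and within line B73 (blue circles) and B87 (orange squares), with dashed lines at 2-fold. The interaction is filled for *Plat* alone, at −1.98, and the lines lie on opposite sides of 0 for *Serpine2* there.

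Counted by comparison, restoring Smad4 with TGFβ1 called 2 of the 4 members lower, *Plat* and *Serpine2*, and none higher, where 1.8% of all genes tested were called lower and 1.31% higher. Without the line term edgeR and DESeq2 each called 1 member, *Plat*. Under SB505124, restoring Smad4 called 1 member lower, *Plau*, and none higher, against 0.455% and 0.636% of all genes. In Smad4-on cells TGFβ1 called *Plau* and *Plaur* higher and *Plat* lower, against 5.62% and 8.31% of all genes. In Smad4-off cells edgeR and DESeq2 called 0 of 4 members, where 5.93% of all genes were called, and 3 members had an unadjusted p under 0.05, as did 28.7% of all genes. The median log2 fold change of all genes tested was between −0.02 and 0.01 in each of these comparisons. Comparisons that share a group share its 2 libraries, so calls in the Smad4 effect and the TGFβ1 response are not independent of each other.

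The balance of the activators within a library changed with the condition. The ratio of *Plau* to *Plat* per kilobase was 2.27 in B73 and 1.33 in B87 for Smad4-off cells under SB505124, and 0.581 and 0.511 for Smad4-on cells. With TGFβ1 it was 3.41 and 3.30 in Smad4-off and 6.23 and 5.99 in Smad4-on cells. The Smad4-on libraries thus held both the lowest and the highest ratios, and with merged exon length the ratio was above 1 in the other 6 libraries. With the longest transcript it was 0.874 in the B87 library of Smad4-off cells under SB505124. The ratio of *Plaur* to *Plau* per kilobase was 2.05 to 3.69 in the 4 Smad4-off libraries and 7.02 to 8.73 in the 4 Smad4-on libraries, with no overlap. Both ratios were chosen after the values were seen and are given without a test.

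**Figure D3:**
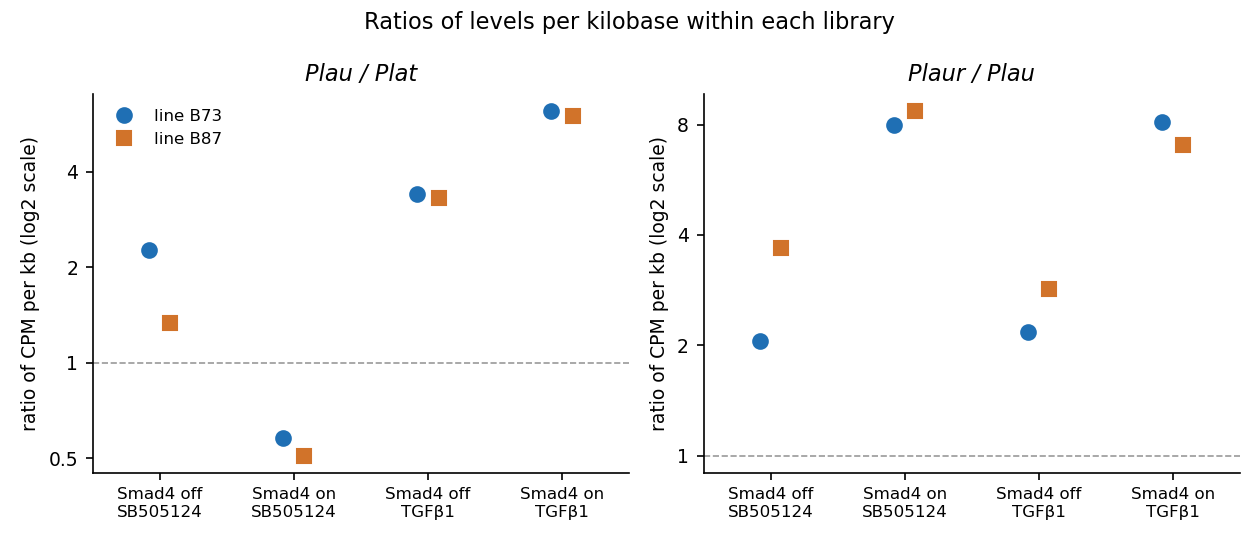
Ratio of *Plau* to *Plat* (left) and of *Plaur* to *Plau* (right) in each library, from CPM per kilobase of merged exon length on a log2 axis, with the dashed line at equal levels and lines B73 and B87 as circles and squares. With this length *Plau* to *Plat* is below 1 in both Smad4-on libraries under SB505124 and above 1 in the other 6, and *Plaur* to *Plau* is at least 7.02 in Smad4-on and at most 3.69 in Smad4-off libraries.

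Of 34 further genes of the plasminogen and surface protease system, 21 passed the low-count filter. The transcript of the substrate was not detectable at this depth, since *Plg*, the plasminogen gene, had at most 1 count. Plasminogen protein was not measured. Transcripts of its surface partners were present: *Anxa2*, the annexin that binds tissue-type activator and plasminogen, gave 1970 to 3028 CPM. Of the 4 tested genes of zymogen and surface binding none was called. Of 8 other inhibitors listed, 6 had at most 3 counts, among them *Serpinf2*, the plasmin inhibitor.

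Restoring Smad4 with TGFβ1 called 2 of the 21 higher and 1 lower, with a list median of 0.31, where 3.12% of all genes were called in either direction. *F3*, tissue factor that starts coagulation, was higher by 2.57 ± 0.22 (edgeR adjusted p = 0.00206), with 476 against 62.3 CPM in B73 and 236 against 52.8 CPM in B87. *Serpinb2*, a serpin that inhibits urokinase, was higher by 3.36 ± 0.70 (adjusted p = 0.0376), with 105 against 8 counts in B73 and 142 against 20 counts in B87. *Sorl1*, a sorting receptor of the LDL receptor family, was lower by a fitted −2.08 ± 0.26 (adjusted p = 0.00701), with 3.57 against 10.6 CPM in B73 and 1.78 against 11.4 CPM in B87. The same test thus called *Serpine2* lower and *Serpinb2* higher, both with an adjusted p close to the threshold. Without the line edgeR called 0 of the 21 and DESeq2 called 2.

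In Smad4-on cells TGFβ1 called 2 of the 21 higher, *F3* at 2.31 ± 0.22 (adjusted p = 0.000522) and *Serpini1*, the neuroserpin gene, at 1.53 ± 0.31 (adjusted p = 0.0103), with a list median of 0.26, and 13.9% of all genes were called in either direction. It called 2 lower, *Sorl1* at −2.70 ± 0.25 (adjusted p = 0.000483) and *Vldlr*, an endocytic receptor of the same family as *Sorl1*, at −1.33 ± 0.16 (adjusted p = 0.00124). In Smad4-off cells, where 5.93% of all genes were called, edgeR called 1 of the 21, *Sorl1*, lower at −1.32 ± 0.22 (adjusted p = 0.0117). Under SB505124 restoring Smad4 called 0 of 21 by edgeR and by DESeq2, with 7 at an unadjusted p under 0.05, where 1.09% of all genes were called and 12.6% had such a p. The interaction called 0 of 21 by edgeR, with 2 at an unadjusted p under 0.05 against 10.4% of all genes, and DESeq2 with the line called 2, *F3* and *Sorl1*. By edgeR the TGFβ1 response of *Sorl1* and *F3* was thus not shown to differ between the Smad4 states (interaction adjusted p = 0.224 and 0.126).

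**Figure D4:**
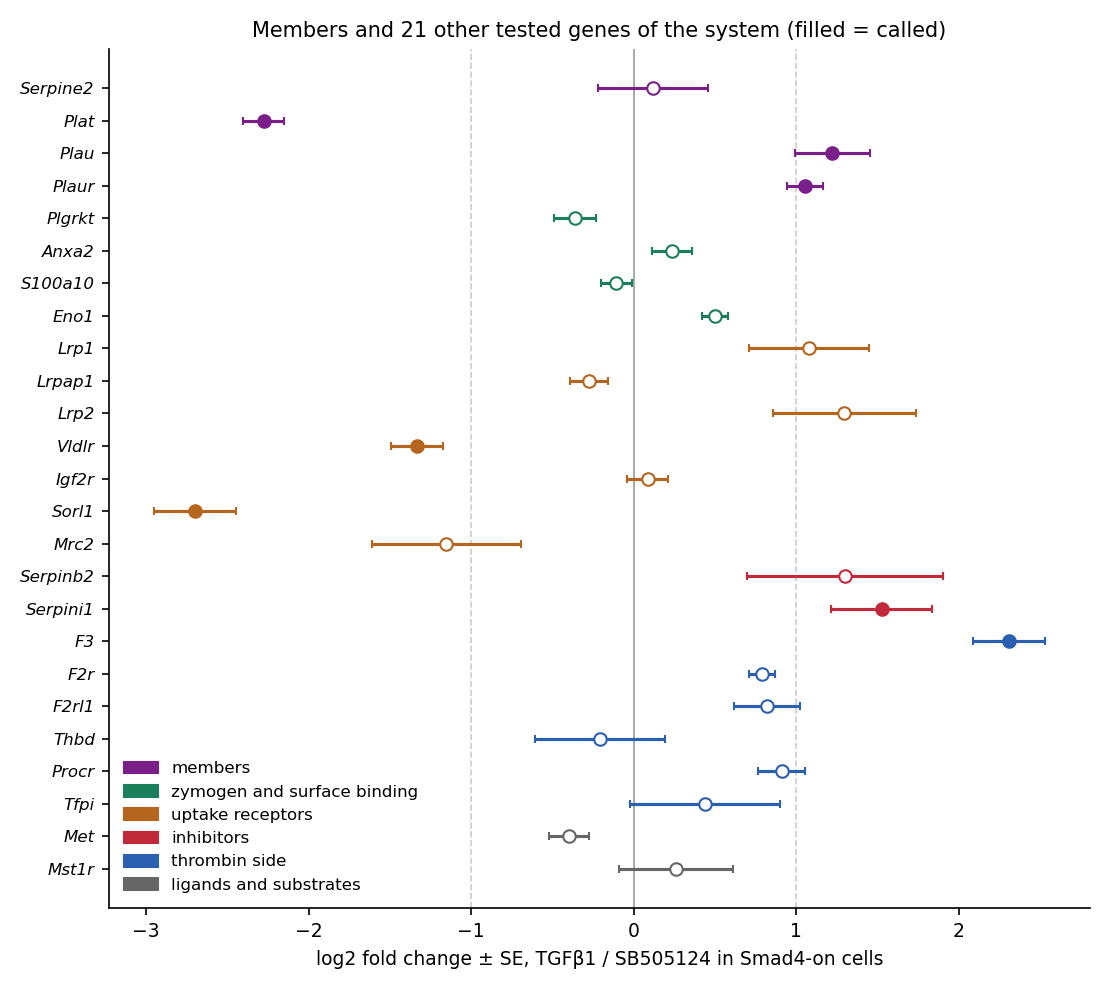
Log2 fold change ± SE of TGFβ1 against SB505124 in Smad4-on cells for the 4 members and the 21 other tested genes of the system, coloured by role, with filled points for called genes and dashed lines at 2-fold. *Sorl1* at −2.70 and *Plat* at −2.28 lie lowest and *F3* at 2.31 highest, and *Serpine2* at 0.12 lies near 0.

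Genes that lie beside the members were counted too. Within 100 kb, *Plat* had 7 neighbours of which 3 were tested, *Plau* 4 and 2, *Plaur* 9 and 6, and *Serpine2* 5 and 3. Over the 5 comparisons of treatment and Smad4, edgeR and DESeq2 called 0 of these 14 genes, where 0.189% to 13.9% of all genes were called. At an unadjusted p under 0.05 there were 5 of the 14 for Smad4 with TGFβ1, 2 for Smad4 under SB505124, 7 and 4 for TGFβ1 in Smad4-on and Smad4-off cells and 1 for the interaction, against 23.7%, 12.6%, 43.8%, 28.7% and 10.4% of all genes.

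Patterns across the 8 libraries were compared after centring log2 CPM within each line, among 1613 genes that varied. *Plaur* and *Plat* were opposed, with Pearson's r of −0.94, and *Serpine2* and *Plau* ran together, with r of 0.85, while the other 4 pairs lay between −0.24 and 0.19. The genes most like each member were *Fndc4*, *Myl12b* and *Mgat3* for *Plat* (r of 0.98), *Kalrn*, *Traf1* and *Dlgap1* for *Plau* (0.95 to 0.97), *Tmcc1*, *Ehbp1l1* and *Mdm2* for *Plaur* (0.99 to 1.00) and *Nfkbie*, *Dnajc28* and *Dennd3* for *Serpine2* (0.97 to 0.98). The 8 libraries share 4 conditions, so these values are descriptions. By Spearman's rho the genes named for *Plat* stood lower in the order, *Fndc4* at 106, *Mgat3* at 438 and *Myl12b* at 548 of the 1613 genes. *Ehbp1l1* and *Mdm2* stood at 16 and 89 for *Plaur*, and *Dennd3* and *Dnajc28* at 4 and 28 for *Serpine2*.

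The lines were also compared in the size of their responses, in a model with 7 coefficients that leaves 1 residual degree of freedom among 8 libraries. *Plau* was the only member with an adjusted p under 0.05. Its TGFβ1 response, averaged over the Smad4 states, was higher in B87 than in B73 by 0.63 ± 0.11 (edgeR adjusted p = 0.00577), and its lowering with Smad4 was smaller in B87, by 0.43 ± 0.11 (adjusted p = 0.0325). Both are under the 2-fold rule, by which 1.1% and 2.59% of all genes were called in these 2 terms. With DESeq2 the adjusted p were 0.418 and 0.941. With 1 line term at a time, an alternative chosen after seeing the data, they were 0.566 and 0.685.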

How the data were processed

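The 8 count columns, 1 per library, were used. The deposited values are raw counts per Ensembl gene: the authors trimmed single-end 75-bp reads of stranded poly(A) libraries with Trimmomatic 0.36, checked them with FastQC 0.11.5, aligned them to GRCm38 (mm10) with STAR 2.5.3a and counted with featureCounts 1.6.3, without pooling. Settings for strand and multiply aligned reads are not given in the sources used here.

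Groups and lines came from the sample titles. Counts were tested with edgeR 4.0.16 (R 4.3.3): TMM scaling, filterByExpr, quasi-likelihood F-test, 4 groups plus cell line (5 coefficients, 3 residual degrees of freedom), Benjamini-Hochberg over 14301 genes. A gene was called at an adjusted p under 0.05 and over 2-fold, the study's thresholds. The study used DESeq2 and named no covariate. DESeq2 1.42.0 with and without the line was an alternative, as were scaling, filters, fold rules and leaving out libraries. SE is the size of the log2 fold change over the square root of F. CPM use TMM-scaled totals; log2 CPM a prior count of 2. Each line went through all 4 conditions, and line deviations correlated between groups (r of 0.642 to 0.774 over 6 pairs of groups), so the line entered as the replicate block. The design table counted 6 coefficients for the models with line terms, and 7 were fitted. Counts were simulated for the Smad4 effect with TGFβ1 (14037 genes tested, log2 fold change of 2). There edgeR with the line recovered 84.5% of all changed genes, those lost to the filter included, with 3.43% of calls false. Without the line it recovered 57.5% with 0% false. These counts had a constant line effect and no line difference in response, so they do not test the model where the lines respond differently.

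Totals limit precision for low counts, and intervals and floors cover counting error only, since PCR copies cannot be told apart. Members, gene lists and tests were chosen with earlier results of these data known. Named genes were the 4 members, 4 checks, system genes called in any of the 5 treatment or Smad4 comparisons, neighbours called with their member, and the 3 genes most like each member (mean log2 CPM of at least 1, SD of at least 0.5). *Plg*, *Anxa2* and *Serpinf2* were added after their values were seen. 1 further gene of the system is not reported here.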

Additional observations from a re-analysis of the deposited data

Results flagged for a closer look

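The *Plat* response to TGFβ1 differed between Smad4-on and Smad4-off cells by a test of the difference itself, with a log2 interaction of −1.98 (adjusted p = 0.0189 by edgeR) and values below 0 in both lines. Smad4-on libraries with TGFβ1 measured 17.7 and 18.6 CPM.

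For *Plau* the lines differed by the same kind of test with edgeR. With DESeq2 the adjusted p were 0.418 for the TGFβ1 response and 0.941 for the Smad4 effect. Neither was under 0.05 with 1 line term at a time. The TGFβ1 response was higher in B87 than in B73 by 0.63 (adjusted p = 0.00577 by edgeR). The lowering with Smad4 was smaller in B87, by 0.43 (adjusted p = 0.0325 by edgeR). Each came from 1 residual degree of freedom, with an adjusted p under 0.05 in 4 of 7 alternatives. These 4 include the setting with no fold rule, which repeats the main fit and could not differ from it.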

How the results depend on the processing

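Of 480 alternative values for the members' log2 fold changes, 29 lost a call, 7 gained one, and 6, with 1 library a group and no test, moved by more than the spread between the lines. The sign changed in 8, all of *Serpine2* in comparisons where it was not called. Its TGFβ1 change ranged over the alternatives from −0.12 to 0.95 in Smad4-off cells and from −0.0562 to 1.14 in Smad4-on cells, where edgeR with no replicate block gave −0.0097 and leaving out the B73 SB505124 library −0.0562. Its interaction ranged from −0.97 to 0.92, the highest being that of B73 alone, and was 0.26 and 0.53 without the Smad4-off or Smad4-on SB505124 library of B87. The cause was not tested. With the longest transcript the mean level over the 8 libraries went from 1.14 to 2.77 CPM per kilobase for *Serpine2* and from 9.66 to 14.9 for *Plat*.

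Without the replicate block (the line, which pairs the libraries) edgeR called 1 member in place of 2 for Smad4 with TGFβ1, 0 in place of 1 for Smad4 under SB505124 and 0 in place of 1 for the interaction. DESeq2 without the block called 1 for Smad4 with TGFβ1, 1 for Smad4 under SB505124, 3 for TGFβ1 in Smad4-on cells and 1 for the interaction. Over all genes it called 261 for Smad4 with TGFβ1 and 97 for Smad4 under SB505124. For TGFβ1 in Smad4-on and Smad4-off cells it called 1363 and 479, and for the interaction 40. Over all genes the block moved the calls of edgeR from 36 to 446, from 2 to 156, from 1035 to 1993, from 168 to 848 and from 0 to 27 for, in this order, Smad4 with TGFβ1, Smad4 under SB505124, TGFβ1 in Smad4-on cells, TGFβ1 in Smad4-off cells and the interaction. A test against 2-fold itself (glmTreat) called 1, 0, 1 and 0 members for Smad4 with TGFβ1, Smad4 under SB505124, TGFβ1 in Smad4-on cells and the interaction, and over all genes 79, 37, 882 and 3, with 204 for TGFβ1 in Smad4-off cells and 570 between the lines. A minimum of 10 counts in every library left *Serpine2* untested, so 1 member was called for Smad4 with TGFβ1 and 0 between the lines. Over all genes this filter called 297 for Smad4 with TGFβ1 and 77 for Smad4 under SB505124. It called 1293 and 519 for TGFβ1 in Smad4-on and Smad4-off cells, and 488 between the lines. With no filter 2 members were called for Smad4 under SB505124 (783, 403 and 284 genes in all for both Smad4 effects and the interaction), and with only the 4 libraries compared 0 (73 genes). With no fold rule 1 member was called for TGFβ1 in Smad4-off cells and 1 in each test of a line difference in response, with 973 genes in all for Smad4 with TGFβ1, 4751 and 1888 for TGFβ1 in Smad4-on and Smad4-off cells, 2660 between the lines, and 850 and 1058 for the line differences in the treatment and Smad4 responses. DESeq2 with the line called 136 genes for the interaction and 47 and 115 for the line differences.

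Leaving out 1 library gave 1 to 2 members for Smad4 with TGFβ1, 0 to 1 for Smad4 under SB505124, 1 to 3 for TGFβ1 in Smad4-on cells, 0 to 1 in Smad4-off cells and 0 to 1 for the interaction. Over all genes the ranges, in the same order, were 156 to 453, 46 to 161, 1567 to 2101, 377 to 879 and 0 to 14. Tests of a line difference in response had no residual degree of freedom with a library left out. With 1 line term at a time, calls over all genes went from 158 to 0 for the treatment response and from 370 to 56 for the Smad4 effect, and with glmTreat to 7 and 69. Counts as low as 5 in B73 limit *Serpine2*.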
